A study of Rattus norvegicus with 18 samples.

Results

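The 3 peroxisome proliferator-activated receptor genes Ppara (ENSRNOG00000021463), Ppard (ENSRNOG00000000503) and Pparg (ENSRNOG00000008839) and the coactivator gene Ppargc1a (ENSRNOG00000004473), which encodes PGC-1 alpha, were described in whole hearts of 3-week-old male offspring of Wistar rats. They are 4 of the 30560 genes in the count table. The members were fixed by Ensembl ID and not by a measured value, and the symbols are those supplied with the IDs. The reference table used here pairs 0 of the table's IDs with a symbol, so the symbols were not checked. All 4 genes passed the filter on low counts, which left 17009 genes for testing.

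Per the labels, exposure took place in gestation. The CBD3 group (6 hearts) was exposed to cannabidiol at 3 mg/kg/day and the CBD30 group (5 hearts) at 30 mg/kg/day, while 7 hearts came from the vehicle group. Cannabidiol is a plant cannabinoid that does not cause intoxication. All groups were male hearts of the same age, and each library was made from messenger RNA of a whole frozen heart, so fewer cells of a type and less RNA per cell cannot be told apart. The labels do not say which offspring shared a litter, and p-values treat them as independent.

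The PPARs are nuclear receptors that are activated by fatty acids and their derivatives and bind DNA as partners of the retinoid X receptors. In heart muscle PPAR alpha and PPAR delta drive genes of fatty acid uptake and oxidation, while PPAR gamma is best known as the master regulator of fat cells. PGC-1 alpha does not bind DNA by itself. It is recruited by PPARs, estrogen-related receptors and other factors, and promotes mitochondrial biogenesis and oxidative metabolism, which expand as the heart matures after birth. PPAR gamma is also a reported target of cannabidiol.

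Libraries held 44127009 to 89240727 counts. Samples are named by group and by the code in their label, such as 2.1, whose meaning is not given. The 9 samples whose code ends in digit 1 and the 9 ending in digit 2 were also compared separately. Library totals were 63672078 to 89240727 in the digit 1 samples and 44127009 to 67302419 in the digit 2 samples. Digit and depth thus largely went together. On the first principal component of log2 CPM (counts scaled by library size), which held 29.8% of the variance, the vehicle samples coded 2.1 and 1.1 lay at -65.0 and -57.9 and the CBD30 sample coded 2.1 at 65.5. The other 15 samples lay between -30.2 and 30.2, and all 3 outlying samples have codes ending in digit 1. The fold changes against vehicle, the correlation of Ppara with Ppargc1a and the counts of similar genes are given with and without them.

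Of the 4 genes, Ppara and Ppargc1a varied together from heart to heart, and their promoter windows are therefore shown. Each covers 250 bases before to 50 bases after an annotated start, 5′ to 3′, from RefSeq on build GRCr8, which is not the build mRatBN7.2 named for the counts. Capitals mark matches to the motifs searched.
Ppara, chr7:118712357-118712656, plus strand: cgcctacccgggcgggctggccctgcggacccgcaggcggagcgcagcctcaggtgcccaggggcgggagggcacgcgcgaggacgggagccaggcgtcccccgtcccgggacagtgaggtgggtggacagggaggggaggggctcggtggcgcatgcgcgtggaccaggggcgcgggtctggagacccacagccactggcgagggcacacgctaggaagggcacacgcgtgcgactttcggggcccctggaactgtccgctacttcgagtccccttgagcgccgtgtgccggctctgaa
Ppargc1a, chr14:63634058-63634357, plus strand: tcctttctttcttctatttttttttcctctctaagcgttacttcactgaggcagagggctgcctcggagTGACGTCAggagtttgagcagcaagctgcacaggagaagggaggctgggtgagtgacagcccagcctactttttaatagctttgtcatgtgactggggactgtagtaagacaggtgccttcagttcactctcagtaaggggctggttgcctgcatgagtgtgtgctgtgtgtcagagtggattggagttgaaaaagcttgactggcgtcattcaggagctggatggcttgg
The Ppargc1a window holds 1 exact match to the cAMP response element, TGACGTCA, beginning 181 bases before the start. This palindrome, bound by CREB family factors, was present in 1.83% of 33469 windows of the same length. The Ppara window holds no match to it, and differs in composition, with 73.7% G and C and 32 CG dinucleotides against 50.3% and 4 in the Ppargc1a window. Also searched on both strands were the direct repeat bound by PPAR with its retinoid X receptor partner (direct repeat 1, 0.0538% of windows), its core hexamer (AGGTCA, 16.2%), the estrogen-related receptor element (TCAAGGTCA, 0.433%) and the E box bound by clock and other factors (CACGTG, 6.42%). The core hexamer lies within both of the longer elements. None of these letters occurred in the windows of Ppara and Ppargc1a or in the 2 start windows listed for Pparg, whose counts here are summed over the whole gene. Only exact letters within these windows were searched, so variant sites and sites farther from the start were not covered. No start window was available for Ppard, which was not searched.

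Ppara, which encodes 1 of the receptors that drive fatty acid oxidation genes in heart muscle, had 2.15 to 22.9 CPM in vehicle hearts, with a median of 10.05 CPM. CPM values were scaled for library composition (TMM). The highest vehicle hearts were those coded 2.1 (22.9 CPM) and 1.1 (17.0 CPM), and the lowest was coded 2.2 (2.15 CPM). In CBD3 hearts Ppara ranged from 3.89 to 15.3 CPM with a median of 6.13 CPM. The 5 CBD30 hearts had 4.55, 5.43, 7.42, 8.28 and 9.13 CPM. All 11 exposed hearts lay inside the vehicle range, although all 5 CBD30 and 5 of 6 CBD3 hearts were below the vehicle median. Both exposed groups thus overlapped with vehicle. Groups did not overlap with vehicle for 0.194% of tested genes with CBD3 and 0.629% with CBD30.

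Mean Ppara was 10.9 ± 6.96 CPM in the 7 vehicle hearts (SD), 7.15 ± 4.13 CPM in the 6 CBD3 hearts and 6.96 ± 1.93 CPM in the 5 CBD30 hearts. The log2 fold change of Ppara was -0.62 ± 0.40 (SE) for CBD3 against vehicle (edgeR adjusted p = 0.575) and -0.66 ± 0.42 for CBD30 against vehicle (edgeR adjusted p = 0.428). Neither passed the threshold of 0.05. Its 95% intervals ran from 0.366-fold to 1.16-fold for CBD3 and from 0.344-fold to 1.17-fold for CBD30, so fold changes well below 0.5 lay within both intervals.

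Ppard, the most broadly expressed of the 3 receptors, was the steadiest of the genes described here. It had 47.0 to 76.0 CPM in vehicle hearts (median 60.4), 62.2 to 78.4 in CBD3 (median 69.6), and 56.2, 61.1, 65.5, 74.2 and 81.7 CPM in the 5 CBD30 hearts. Of the 11 exposed hearts, 9 lay within the vehicle range and 1 in each dose group above it. The means were 61.3 ± 9.94 CPM (SD, n = 7), 69.1 ± 5.71 (n = 6) and 67.7 ± 10.2 (n = 5). The log2 fold change was 0.17 ± 0.11 (SE) for CBD3 (edgeR adjusted p = 0.570) and 0.14 ± 0.11 for CBD30 (edgeR adjusted p = 0.520). These intervals were narrow, from 0.965-fold to 1.32-fold for CBD3 and from 0.937-fold to 1.30-fold for CBD30.

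Pparg, the fat cell regulator, had 6.43 to 11.1 CPM in vehicle hearts with a median of 8.78 CPM. CBD3 hearts had 5.71 to 8.45 CPM with a median of 7.25 CPM, all 6 of them under the vehicle median and 2 under the lowest vehicle heart. CBD30 hearts had 6.21, 6.61, 6.86, 6.99 and 9.93 CPM, with 4 of 5 under the vehicle median and 1 under the lowest vehicle heart. The single high value, 9.93 CPM, was in the sample coded 1.2. Mean Pparg was 8.45 ± 1.77 CPM in vehicle hearts (SD), 7.02 ± 1.098 CPM in the 6 CBD3 hearts and 7.32 ± 1.49 CPM in the 5 CBD30 hearts.

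The log2 fold change of Pparg was -0.27 ± 0.15 (SE) for CBD3 (edgeR adjusted p = 0.552), with an interval of 0.670-fold to 1.03-fold. For CBD30 it was -0.21 ± 0.16 (edgeR adjusted p = 0.497), with an interval of 0.690-fold to 1.09-fold. Markers of fat cells, which could bear on Pparg in whole hearts, could not be matched to the table's IDs, and their part in these levels was not tested.

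Ppargc1a, the coactivator, had 9.37 to 46.4 CPM in vehicle hearts with a median of 27.1 CPM. The same vehicle hearts stood at its ends as for Ppara, with 46.4 CPM in sample 2.1, 31.3 CPM in sample 1.1 and 9.37 CPM in sample 2.2. CBD3 hearts ranged from 14.3 to 27.8 CPM with a median of 17.7 CPM, and the CBD30 hearts had 15.5, 16.5, 23.4, 25.6 and 27.2 CPM. All 11 exposed hearts lay inside the vehicle range. Mean Ppargc1a was 26.0 ± 11.7 CPM in vehicle hearts (SD), 19.9 ± 6.08 CPM in the 6 CBD3 hearts and 21.6 ± 5.34 CPM in the 5 CBD30 hearts. The log2 fold change was -0.39 ± 0.27 (SE) for CBD3 (edgeR adjusted p = 0.588) and -0.27 ± 0.28 for CBD30 (edgeR adjusted p = 0.632).

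**Figure D1:**
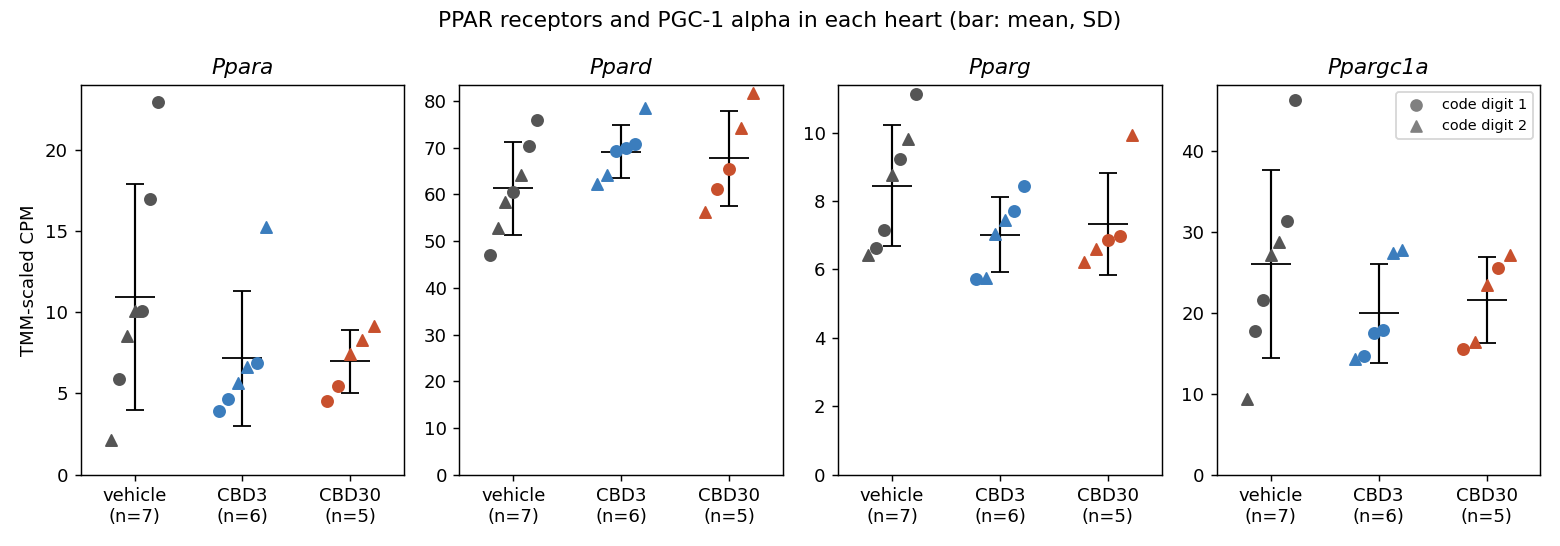
Level of each gene in each heart, in TMM-scaled CPM on linear axes that start at 0, for vehicle (n = 7), CBD3 (n = 6) and CBD30 (n = 5). Points are hearts (circles for codes ending in digit 1, triangles for digit 2) and bars are mean and SD. The vehicle hearts of Ppara and Ppargc1a spread from 2.15 to 22.9 and from 9.37 to 46.4 CPM, and enclose all exposed hearts.

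Of the 4 genes, 0 passed an adjusted p of 0.05 against vehicle at either dose with edgeR, and the same was true of 0 of 17009 genes (0%) in each comparison. At an unadjusted p under 0.05 the count was also 0 of 4 for CBD3 and for CBD30, beside 8.92% and 16.4% of all genes tested. DESeq2 called 0 of 4 as well, beside 0.109% of the genes it tested for CBD3 (19 of 17363) and 0.839% for CBD30 (134 of 15967). Limma voom called 0 of 4 and 0% of genes at both doses. A single test for any difference among the 3 groups gave edgeR adjusted p = 0.627 for Ppara, 0.670 for Ppard, 0.620 for Pparg and 0.727 for Ppargc1a. The direction of the means was the same at both doses for each gene, with Ppard above vehicle and the others below it, but both comparisons use the same 7 vehicle hearts.

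Between the doses the groups overlapped for all 4 genes (no overlap for 0.218% of tested genes), and 0 of 4 differed with edgeR at an adjusted p (0% of all genes) or an unadjusted p of 0.05 (1.73% of all genes). The log2 differences of CBD30 from CBD3 were -0.037 ± 0.43 (SE) for Ppara, -0.030 ± 0.12 for Ppard, 0.060 ± 0.16 for Pparg and 0.12 ± 0.29 for Ppargc1a (edgeR adjusted p = 0.999 for each). The precision differed between genes. For Ppard the interval of CBD30 against CBD3 was 0.826-fold to 1.16-fold, and for Pparg it was 0.825-fold to 1.32-fold. For Ppara it spanned 0.523-fold to 1.82-fold.

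**Figure D2:**
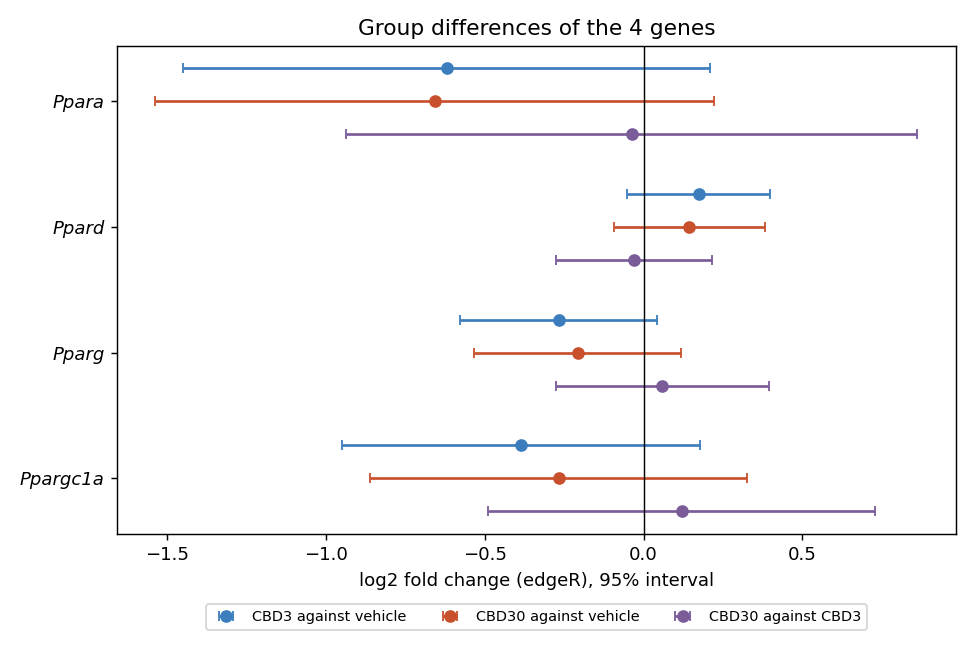
Log2 fold change of each gene in the 3 comparisons, with 95% intervals from the edgeR fit of all 18 samples. All 12 intervals include 0, and those of Ppara are the widest of the genes shown, reaching -1.54 for CBD30 against vehicle.

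The 4 genes differed in how much they varied between hearts. After removing group means, the SD of log2 CPM was 0.83 for Ppara, 0.56 for Ppargc1a, 0.27 for Pparg and 0.20 for Ppard, beside a median of 0.28 over the 17009 genes. Ppara thus varied more than 95.04% of tested genes, and more than 98.1% of the 13527 genes averaging 1 CPM or more. For Ppargc1a these shares were 84.6% and 93.4%. Pparg had a mean level near that of Ppara (7.66 against 8.58 CPM over all hearts, so of like counting precision). It exceeded 48.0% of tested genes and 59.8% of those averaging 1 CPM or more.

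Counting error was small beside this spread. The lowest Ppara value rested on 112 counts, a Poisson standard error of 9.45%, which covers counting error only. The ratio of the highest to the lowest vehicle heart was 10.6 for Ppara, 4.95 for Ppargc1a, 1.73 for Pparg and 1.62 for Ppard. Within exposed hearts the ratios for Ppara were smaller, 3.93 in CBD3 and 2.01 in CBD30. The difference in spread between groups was not tested.

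Ppara and Ppargc1a rose and fell together across the 18 hearts. The Pearson correlation of their log2 CPM was 0.834 (permutation p = 4e-05, Benjamini-Hochberg adjusted p = 0.00024 over the 6 pairs of the 4 genes) and the Spearman correlation was 0.761 (permutation p = 0.00045, adjusted p = 0.0027). Both tests were two-sided. Only 1.36% of the other tested genes had as high an absolute correlation with Ppara, and 0.365% with Ppargc1a. Without the 2 hearts whose Ppara lay farthest from the median, the Pearson correlation was 0.648 (permutation p = 0.0073, adjusted p = 0.0438).

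The relation was present with group means removed, at 0.826 (permutation p = 6e-05, adjusted p = 0.00036). Within the 7 vehicle hearts it was 0.969 (exact permutation p = 0.000794, adjusted p = 0.00952 over 12 within-group tests; Spearman 0.893, exact p = 0.0123, adjusted p = 0.148). Within the 6 CBD3 hearts it was 0.757 (exact permutation p = 0.0569, adjusted p = 0.228; Spearman 0.771, exact p = 0.103, adjusted p = 0.411). The CBD30 group, with 5 hearts, was too small for a correlation of its own. There the heart with the second highest Ppargc1a, sample 2.1 at 25.6 CPM, had the lowest Ppara at 4.55 CPM.

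The value was 0.857 in the samples ending in digit 1 (n = 9, exact permutation p = 0.0054, adjusted p = 0.0324 over the 6 pairs) and 0.817 in those ending in digit 2 (n = 9, exact permutation p = 0.0105, adjusted p = 0.0632). It was 0.823 without the 3 samples that lie far out on the first component (permutation p = 0.00018). In the 6 digit 1 samples left without those 3 it was 0.899 (exact permutation p = 0.0264, adjusted p = 0.0528). Over the 18 hearts the other 5 pairs showed no correlation that passed the adjustment, and their Pearson values lay between -0.242 (Ppard with Ppargc1a) and 0.231 (Ppard with Pparg). Ppara with Pparg, at 0.486 in the digit 1 samples, was at -0.675 in the digit 2 samples (n = 9, exact permutation p = 0.0285, adjusted p = 0.0856). In the 6 digit 1 samples without the outlying ones, Pparg had a correlation of 0.929 with Ppara (exact permutation p = 0.0139, adjusted p = 0.0417) and 0.963 with Ppargc1a (exact permutation p = 0.00278, adjusted p = 0.0167). Whether the correlation of Ppargc1a with Ppara differs from those with Ppard and Pparg was not itself tested.

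**Figure D3:**
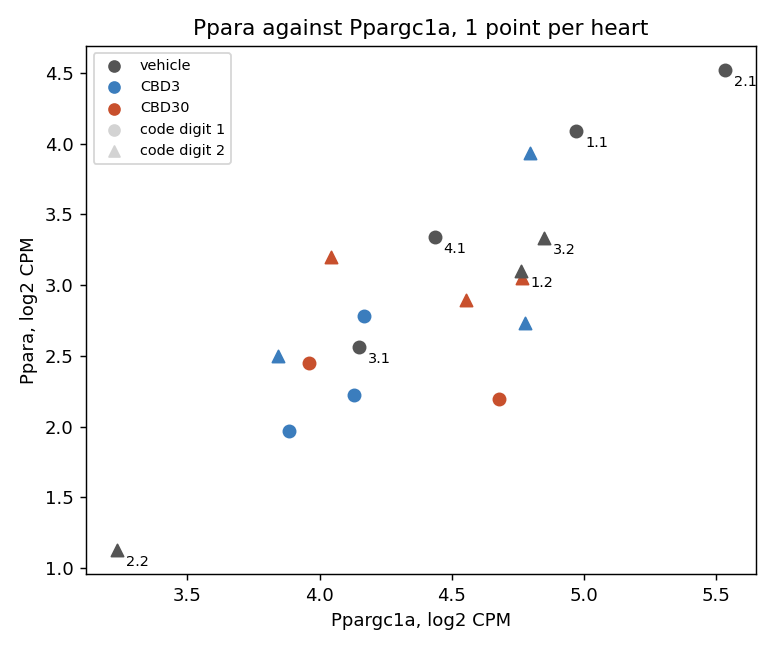
Ppara against Ppargc1a in log2 CPM, 1 point per heart, coloured by group, with circles for codes ending in digit 1 and triangles for digit 2. Vehicle hearts are labelled with their code. Points follow a rising line (Pearson 0.834), and the vehicle hearts coded 2.2 and 2.1 mark its lower and upper ends.

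Of 4 library measures (the score on the first component, the library total, the share of counts in the 10 highest genes and the TMM factor), 1 passed adjustment with Ppara over all 18 samples and 0 with Ppargc1a. Ppara had a Pearson correlation of -0.725 with the score on the first component (permutation p = 0.0009, adjusted p = 0.0144 over 16 relations of the 4 genes with 4 measures; Spearman -0.734, permutation p = 0.00071, adjusted p = 0.0114). As high an absolute value was reached by 24.1% of tested genes. It was -0.924 in the digit 1 samples (n = 9, exact permutation p = 0.000799, adjusted p = 0.0128 over 32 relations) and -0.296 in the digit 2 samples (n = 9, exact permutation p = 0.483, adjusted p = 0.680), and -0.494 over all samples without the 2 farthest out on the score. Without the 3 outlying samples it was -0.492 (n = 15, permutation p = 0.0631, adjusted p = 0.336), and -0.819 in the 6 digit 1 samples then left (exact permutation p = 0.0542, adjusted p = 0.412). Ppargc1a had a correlation of -0.496 with the score over all 18 samples (permutation p = 0.0366, adjusted p = 0.293; Spearman -0.550, permutation p = 0.0194, adjusted p = 0.155) and -0.143 without the 2 farthest out. With the score removed by a linear fit, Ppara and Ppargc1a still correlated at 0.793 (permutation p = 0.00021, adjusted p = 0.00126).

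Ppargc1a had a correlation of -0.916 with the library total in the digit 1 samples (n = 9, exact permutation p = 0.000298, adjusted p = 0.00952) but 0.261 in the digit 2 samples (n = 9, exact permutation p = 0.510, adjusted p = 0.680). Over all 18 samples it was -0.155 (Spearman -0.257; permutation p = 0.540 and 0.303, adjusted p = 0.859 and 0.693). For Ppara the values with the library total were -0.711 (n = 9, exact permutation p = 0.0312, adjusted p = 0.166) and 0.0991 (n = 9, exact permutation p = 0.839, adjusted p = 0.895). In the 6 digit 1 samples without the outlying ones, the correlation of Ppargc1a with the library total was -0.596 (exact permutation p = 0.183, adjusted p = 0.412).

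The share of counts in the 10 highest genes had a correlation of -0.835 with Ppara in the digit 1 samples (n = 9, exact permutation p = 0.00439, adjusted p = 0.0435), and 0.257 in the digit 2 samples (n = 9, exact permutation p = 0.470, adjusted p = 0.680). The TMM factor had one of 0.812 with Ppara in the digit 1 samples (n = 9, exact permutation p = 0.0068, adjusted p = 0.0435) and -0.630 in the digit 2 samples (n = 9, exact permutation p = 0.0729, adjusted p = 0.233). With Ppargc1a the TMM factor stood at 0.501 (n = 9, exact permutation p = 0.174, adjusted p = 0.398) and -0.799 (n = 9, exact permutation p = 0.00655, adjusted p = 0.0435). Signs thus differed between the digits for these 3 relations. With the 3 outlying samples removed, none of the 16 relations passed adjustment, over 15 samples or within digit 1. The digit 2 samples hold none of those 3, and there the relation of Ppargc1a with the TMM factor did pass, as given above. The part of library size or composition in the levels of these genes was not tested.

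The comparison with vehicle was also made within each code digit. In the digit 1 samples alone, Ppara had a log2 fold change of -1.45 ± 0.41 (SE) for CBD3 (edgeR adjusted p = 0.387) and -1.47 ± 0.47 for CBD30 (edgeR adjusted p = 0.198). In the digit 2 samples the values were 0.41 ± 0.50 and 0.26 ± 0.50 (edgeR adjusted p = 0.9999 and 0.998). The mean level in vehicle hearts was 13.98 ± 7.52 CPM in the digit 1 samples (SD, n = 4) and 6.92 ± 4.19 CPM in the digit 2 samples (n = 3). The digit 1 set holds all 3 outlying samples. Without them it had 2 vehicle, 3 CBD3 and 1 CBD30 hearts, and Ppara was at -0.62 ± 0.29 for CBD3 and -0.53 ± 0.41 for CBD30 (edgeR adjusted p = 0.985 and 1), the lone CBD30 heart being assumed to vary like the other groups. Tested directly in all 18 samples, the CBD3 difference of Ppara was 1.85 ± 0.70 higher in the digit 2 samples (log2, SE; edgeR interaction, unadjusted p = 0.0177, adjusted p = 0.532). For CBD30 this was 1.75 ± 0.76 (edgeR interaction, unadjusted p = 0.0349, adjusted p = 0.376). Unadjusted values under 0.05 were reached by 9.02% and 12.9% of all genes in these interaction tests, and after adjustment 0% and 0.00588% of genes passed, Ppara not among them.

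Ppargc1a went the same way, at -0.81 ± 0.31 and 0.090 ± 0.39 (log2 fold change, SE) for CBD3 in the digit 1 and digit 2 samples, and -0.49 ± 0.35 and 0.041 ± 0.39 for CBD30. In the digit 1 samples without the outlying ones it was at -0.21 ± 0.14 for CBD3 and -0.31 ± 0.20 for CBD30. Its interactions had edgeR adjusted p = 0.541 and 0.608. Pparg kept its sign in both sets, at -0.23 ± 0.21 and -0.30 ± 0.23 for CBD3 and -0.28 ± 0.24 and -0.14 ± 0.23 for CBD30. Without the outlying samples the digit 1 values of Pparg were -0.30 ± 0.24 and -0.39 ± 0.32. Ppard stood at 0.14 ± 0.15 and 0.22 ± 0.16 for CBD3. For CBD30 it was near 0 in the digit 1 samples, at 0.014 ± 0.17 when they were fitted alone, -0.0029 ± 0.18 in the interaction fit and -0.031 ± 0.16 without the outlying ones, and 0.27 ± 0.16 in the digit 2 samples.

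The size of the lower mean of Ppara in exposed hearts moved with the hearts included. With single samples left out, the log2 fold change of Ppara kept its sign, at -0.99 to -0.33 for CBD3 and -0.84 to -0.37 for CBD30. Without vehicle 1.1, vehicle 2.1 and CBD30 2.1, the outlying samples named above, its log2 fold change was -0.043 ± 0.36 (SE) for CBD3 and 0.039 ± 0.40 for CBD30 (edgeR adjusted p = 0.996 for both), and that of Ppargc1a was -0.069 ± 0.26 and -0.017 ± 0.29. Vehicle 2.1 and 1.1 had the highest Ppara of all 18 hearts, and CBD30 2.1 the lowest of its group. Leaving these samples out was therefore bound to raise the fold changes of Ppara. Without vehicle 2.1 alone, Ppara was at -0.33 ± 0.37 and -0.37 ± 0.39, and Ppargc1a at -0.19 ± 0.25 and -0.066 ± 0.26. Without vehicle 2.2, Ppara was at -0.80 ± 0.34 and -0.84 ± 0.36 (edgeR adjusted p = 0.520 and 0.228). Ppargc1a was then at -0.53 ± 0.23 and -0.41 ± 0.24 (edgeR adjusted p = 0.520 and 0.349). Without CBD3 sample 1.2, Ppara was at -0.99 ± 0.38 for CBD3 (edgeR adjusted p = 0.503), and Pparg without CBD30 sample 1.2 was at -0.34 ± 0.15 for CBD30 (edgeR adjusted p = 0.397). Ppargc1a without CBD30 sample 1.1 was at -0.17 ± 0.30 for CBD30. Without vehicle 4.1, Pparg was at -0.13 ± 0.15 for CBD30. Ppard for CBD30 was at 0.088 ± 0.11 without vehicle 1.1 and 0.068 ± 0.12 without CBD30 sample 1.2. Without the 3 outlying samples, Pparg and Ppard were at -0.30 ± 0.16 and 0.15 ± 0.11 for CBD3, and -0.23 ± 0.18 and 0.15 ± 0.12 for CBD30.

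**Figure D4:**
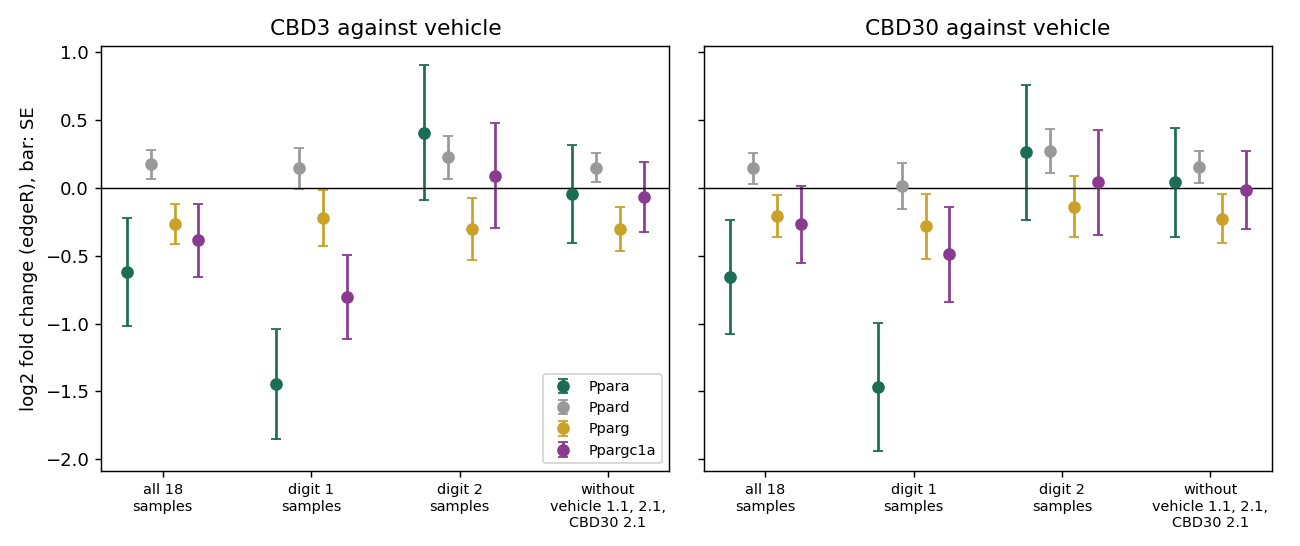
Log2 fold change against vehicle with SE for the 4 genes, in edgeR fits of all 18 samples, of the samples ending in digit 1 (4 vehicle, 3 CBD3, 2 CBD30), of those ending in digit 2 (3 of each group), and without 3 outlying samples. Ppara moves from -1.45 to 0.41 between the digits for CBD3, while Pparg stays below 0 in each fit shown.

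Genes with a similar pattern were sought among the 13523 others averaging 1 CPM or more, as a description. Over the 18 samples, 350 had a Pearson correlation of at least 0.8 with Ppara and 135 with Ppargc1a, but only 5 with Pparg and 4 with Ppard. Without the 3 outlying samples, 210 genes reached that correlation with Ppara, 248 with Ppargc1a, 12 with Pparg and 17 with Ppard. Over all 18 samples the lists of Ppara and Ppargc1a shared 93 genes, which are 26.6% of the first and 68.9% of the second. Over the 15 samples they shared 83, of the 210 genes near Ppara and the 248 near Ppargc1a. The shared part of the Ppargc1a list was thus smaller there, and that of the Ppara list larger. The gene most like Ppara was ENSRNOG00000052583 (0.956, Spearman 0.932), at 29.3 to 291 CPM, and it had a correlation of 0.802 with Ppargc1a. ENSRNOG00000002790 was most like Ppargc1a (0.921, Spearman 0.872), at 3.67 to 23.0 CPM, with 0.906 to Ppara. ENSRNOG00000000407 was nearest to Pparg (0.875) and ENSRNOG00000051960 to Ppard (0.870). The points share libraries and depth, and no source used here gives symbols for these IDs.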

How the data were processed

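Bulk RNA sequencing of 18 hearts was analysed from 1 table of counts per Ensembl gene deposited by the authors. Tools named in the submitters' processing notes are featureCounts and edgeR, with build mRatBN7.2. No source used here gives the aligner, annotation, strand setting or any adjustment of counts for the code digit, so reads of overlapping antisense genes cannot be told apart. The codes of 4 vehicle columns are each held by a pair of sample labels, and these columns were used without a replicate number.

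Low genes were removed with filterByExpr (group-wise, minimum count 10, total 15). A model of all samples was fitted with edgeR 4.0.16 in R 4.3.3 (TMM scaling, quasi-likelihood F tests), with Benjamini-Hochberg adjustment over all 17009 genes. The fit was also run on simulated counts with known fold changes. The share recovered is not given here, so a count of 0 called does not show that no gene changed. Log2 CPM used a prior count of 2. SEs were derived from the F statistic. Correlations used two-sided permutation tests (100000 resamples, exact for 9 samples or fewer). Alternatives used RLE or library size scaling, other filters, DESeq2 1.42.0, limma 3.58.1, subsets and left-out samples. The genes named were the 4 members and, for each, the gene of highest correlation. The 52 pathway symbols and the cell type markers listed for comparison, heart markers included, were not tested, since 0 IDs were paired with symbols. Members, lists and alternatives were chosen with earlier results of these data known.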

Additional observations from a re-analysis of the deposited data

Results flagged for a closer look

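In 12 sets of 5 to 7 samples (4 genes in 3 groups), 2 held a sample far from the others, judged by its gap in CPM (Dixon's test). For 1 set of normally distributed values chance gives about 1 in 20. The sets share the same 18 hearts, and the gaps were not tested on log2 CPM. Whether 2 flags exceed chance was not tested. CBD3 sample 1.2 had a Ppara level of 15.3 CPM, while the next CBD3 heart had 6.85 CPM, a gap of 0.739 of the group's range (critical value 0.625). That heart also had the highest Ppargc1a of the CBD3 group, at 27.8 CPM. CBD30 sample 1.2 had a Pparg level of 9.93 CPM, while the next CBD30 heart had 6.99 CPM, a gap of 0.791 of the range (critical value 0.71). That heart also had the highest Ppard of all hearts, at 81.7 CPM.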

How the results depend on the processing

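None of 396 fold changes of the 4 genes, from 33 alternative fits of each comparison, passed an adjusted p of 0.05 (lowest 0.198). The cause of a change was not tested unless stated. Counts of called genes were 19 for CBD3, 134 for CBD30 and 1 between doses with DESeq2, 1 between doses with only those groups fitted, and 0 to 267 for CBD30 with single samples left out (267 without vehicle 3.1). Signs reversed in the digit 2 samples for Ppara (0.41 for CBD3, 0.26 for CBD30) and Ppargc1a (0.090 and 0.041), and between doses for Ppard (0.050) and Ppargc1a (-0.049). Between doses Pparg reversed in the digit 1 samples (-0.060) and Ppara with limma voom (0.082) or with group and first code number as a shared unit (0.076). Without the 3 outlying samples Ppara reversed for CBD30 (0.039) and between doses (0.083), and Ppard between doses (0.0046). Without them in the digit 1 samples Ppard reversed for CBD30 (-0.031), and Ppara (0.090), Pparg (-0.082) and Ppargc1a (-0.10) between doses. With single samples left out, the dose difference ranged from -0.16 to 0.33 for Ppara, -0.11 to 0.031 for Ppard and -0.075 to 0.12 for Pparg. All are log2 fold changes.

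With the label's replicate number as a block, in the 14 numbered columns, Ppara was at 0.51 ± 0.36 (SE) for CBD3 and 0.45 ± 0.38 for CBD30. Ppargc1a was at 0.080 ± 0.27 and 0.094 ± 0.30. Ppard and Pparg kept their signs in this blocked fit but lay farther from 0 than in the main fit. Ppard was at 0.41 ± 0.14 and 0.40 ± 0.16 (edgeR adjusted p = 0.356 and 0.320). Pparg was at -0.42 ± 0.18 and -0.35 ± 0.20 (edgeR adjusted p = 0.425 and 0.484). The same columns without the block, chosen after seeing the data, gave 0.056 ± 0.43 (SE) and 0.020 ± 0.45 for Ppara. Ppargc1a was there at -0.12 ± 0.31 for CBD3 and 0.0045 ± 0.32 for CBD30. These unblocked values were small beside their SEs. The 4 vehicle columns left out, the samples coded 1.1 and 2.1 among them, are all those ending in digit 1. Vehicle then held digit 2 hearts only, while the exposed groups kept both digits. The part of the block and of the columns left out in these signs and sizes was not tested. Of 8 same-numbered pairs, 2 had deviations correlated above 0.1 (range -0.196 to 0.308), and 3 of 13 samples correlated best with their own number, so the numbers were not taken as pairs.

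The correlation of Ppara with Ppargc1a was 0.763 to 0.887 with single samples left out, and 0.817 in the digit 2 samples, where the adjusted p was 0.0632 (exact permutation test, 9 samples). In the 6 digit 1 samples without the outlying ones it was 0.899 (adjusted p = 0.0528, exact permutation test), and there Ppara with Ppard was 0.386, Ppara with Pparg 0.929, Ppard with Ppargc1a 0.466 and Pparg with Ppargc1a 0.963, these 4 of the opposite sign to the values over 18 samples. Other pairs changed sign too. Ppara with Ppard was 0.026 with groups centred, 0.0803 in the digit 2 samples, 0.0748 without the 3 outlying samples, 0.032 after the fit on the first component and -0.233 to 0.159 with single samples left out. Ppara with Pparg was 0.486 in the digit 1 samples, -0.675 in the digit 2 samples (exact permutation p = 0.0285, adjusted p = 0.0856) and -0.223 to 0.168 with single samples left out. Pparg with Ppargc1a was 0.363 in the digit 1 samples and -0.176 to 0.228, and Ppard with Pparg -0.041 in the digit 2 samples. The correlations without the 3 samples, the fits of digit 1 samples without them, and the correlations after the component fit were chosen after seeing the data.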

Other observations

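In the 6 CBD3 hearts Ppard and Ppargc1a ran in opposite directions, with a Pearson correlation of -0.881 (exact permutation p = 0.0208, adjusted p = 0.125 over 12 within-group tests; Spearman -0.771, exact p = 0.103, adjusted p = 0.411), which did not pass adjustment. Over all 18 hearts the value was -0.242, and in the 7 vehicle hearts 0.0692. The vehicle heart coded 2.2 had the lowest Ppara (2.15 CPM) and Ppargc1a (9.37 CPM) of all 18 hearts, but the second highest Pparg of the vehicle group (9.81 CPM) and a Ppard of 58.5 CPM, near the vehicle median.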
